A study of Mus musculus with 12 samples.

Results

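The 10 genes described here encode the 5 subunits of the transcription factor NF-kB (Nfkb1, Nfkb2, Rel, Rela and Relb), its feedback inhibitors Nfkbia and Tnfaip3, and the target genes Tnf, Birc3 and Icam1. They were taken by gene symbol from a table of 52550 genes, and each symbol matched 1 gene. The libraries were bulk RNA-seq samples of D2A1 and D2.OR, related mouse mammary tumor cell lines that arose from separate tumors. D2A1 keeps proliferating in a 3D matrix, whereas D2.OR becomes dormant there, and the question was how their transcriptomes differ in each setting. Each line was grown for a week on plastic (2D) or on top of Matrigel (3D), with 3 libraries in each of the 4 groups and 12 in all. The labels name no genetic change or drug treatment in any group. The 3D cells were pooled from several wells and freed from Matrigel with a recovery solution, and their medium held horse serum, insulin, hydrocortisone and cholera toxin. The sources used here do not settle whether the 2D libraries were grown in that same medium, so matrix and medium cannot be told apart. Replicate numbers marked 3 batches, each with 1 library of every group and a sequencing lane of its own. In bulk RNA, fewer cells of a kind and less RNA per cell cannot be told apart. Nothing says that the libraries came from separately thawed cultures, so p-values measure the spread between these libraries.

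NF-kB is a family of dimers that are held in the cytoplasm by inhibitor proteins of the IkB family. Signals from cytokine receptors activate the IkB kinase, the inhibitor is degraded, and the freed dimer enters the nucleus and switches on genes that hold a kappa-B site. Among those genes are its own inhibitors, so the response limits itself, and in mammary tumor cells the same pathway drives inflammatory chemokines and survival genes. Transcript levels alone do not measure dimer activity, which depends on where the protein is.

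Total expected counts ranged from 47589611 to 73325069 per library, and 16823 genes passed the filter on low counts. Coordinates are on GRCm38. Leukocyte markers were nearly absent: 7 of 9 stayed under 1 TPM in every group, Ptprc, the pan-leukocyte phosphatase, among them. The monocyte genes Cd68 and Cd14 carried the remainder, and the summed level of the list was 24.6 to 72.8 TPM in D2A1 2D, 40.4 to 191.9 in D2A1 3D, 18.0 to 51.2 in D2.OR 2D and 12.9 to 56.0 in D2.OR 3D. All 4 endothelial markers stayed under 1 TPM. Of 6 epithelial markers, Krt8 and Krt18 alone reached 1 TPM in D2A1, at 0.78 to 2.31 and 92.7 to 294.5 TPM, whereas Epcam, Cdh1 and Krt14 did so too in D2.OR. Mesenchymal markers were expressed in both lines, with Vim at a mean of 1336 TPM in D2A1 2D and 4093 TPM in D2.OR 2D. Of these 5 markers, 3 were called higher in D2.OR in 2D and 4 in 3D, beside 25.4% and 27.7% of all genes. Of the 5 epithelial markers tested, 5 were called higher in D2.OR in 2D and 4 in 3D. Batch 1 stood apart in every group: chi-square per degree of freedom between replicates was 166 to 264 for pairs with batch 1 and 28.6 to 64.4 for batch 2 against batch 3. Values by batch are given where they mattered. No pair agreed within sampling noise.

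The promoters of 8 members were found in RefSeq windows on GRCm38.p6 that run from 250 bases before a RefSeq transcript start to 50 bases after it. The kappa-B consensus searched was GGGRNNYYCC, where R is A or G, Y is C or T and N is any base. Windows of 4 members held at least 1 match to it on either strand, namely Nfkb2, Rel, Nfkbia and Tnfaip3, and those of Rela, Tnf, Birc3 and Icam1 held none. Of 27025 genes with a window, 9.6% held a match, and of 57 genes on the pathway lists used below, 23 did. A match describes letters and is no evidence of binding. Nor does a window without a match show that a gene lacks kappa-B sites, which can vary from these letters or lie outside the window. The Icam1 window, for example, holds tggaaattcc, which differs from the consensus only in its first letter. Because these 4 genes encode parts of the NF-kB circuit that could be read by NF-kB itself, sequence before a transcript start is shown 5′ to 3′ on the gene's strand, with the kappa-B matches in capitals. Adjoining matches that overlap appear as 1 run of capitals. Nfkb2 has 3 windows, all with matches, and Tnfaip3 has 2, of which the other held none; the window with the most matches is shown. The stretches end at or just before the start, except that of Nfkb2, which is the 30 bases around its overlapping matches. They lie at chr19:46304692-46304721 on the plus strand for Nfkb2, and on the minus strand at chr11:23770971-23771119 for Rel, chr12:55492648-55492797 for Nfkbia and chr10:19015411-19015547 for Tnfaip3. The Tnfaip3 start, at 19015410, lies inside the gene span given below, since another transcript starts farther upstream.
Nfkb2: cgtcacGGGAATTCCCCccctcggggggcc
Rel: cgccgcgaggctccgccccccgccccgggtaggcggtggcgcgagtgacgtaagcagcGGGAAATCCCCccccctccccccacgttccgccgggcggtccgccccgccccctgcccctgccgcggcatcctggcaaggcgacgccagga
Nfkbia: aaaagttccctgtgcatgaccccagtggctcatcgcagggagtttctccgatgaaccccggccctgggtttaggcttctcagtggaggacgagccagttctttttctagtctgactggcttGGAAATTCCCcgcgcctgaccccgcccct
Tnfaip3: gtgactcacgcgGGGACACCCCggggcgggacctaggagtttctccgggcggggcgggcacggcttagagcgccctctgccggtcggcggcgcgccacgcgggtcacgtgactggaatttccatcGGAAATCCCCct
The Nfkb2 window had 3 matches, of which 2 overlapped and the third, nearer the start, is not shown. Rel had 2 overlapping matches, Nfkbia had 1 and Tnfaip3 had 2. In Nfkbia, Nfkb2 and Tnfaip3, a match ended within 20 bases of the transcript start. The same 10 bases, GGAAATCCCC, were matched in Rel and in Tnfaip3.

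Levels are given in TPM, a length-corrected unit in which genes can be compared, and the members spanned a wide range, from 199.8 TPM for Nfkbia to 0.177 TPM for Tnf in D2.OR 3D. In D2A1 2D the order of mean levels was Nfkb1, Nfkbia, Rela, Nfkb2, Relb, Birc3, Tnfaip3, Rel, Icam1 and Tnf, and the ranges of the first 4 overlapped from neighbour to neighbour. In D2.OR 2D, Nfkbia at 177 to 192 TPM was above Nfkb1 at 132 to 167 TPM, without overlap. Icam1 and Tnf were the lowest in all 4 groups. The plot of member levels shows the 12 libraries gene by gene.

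**Figure D1:**
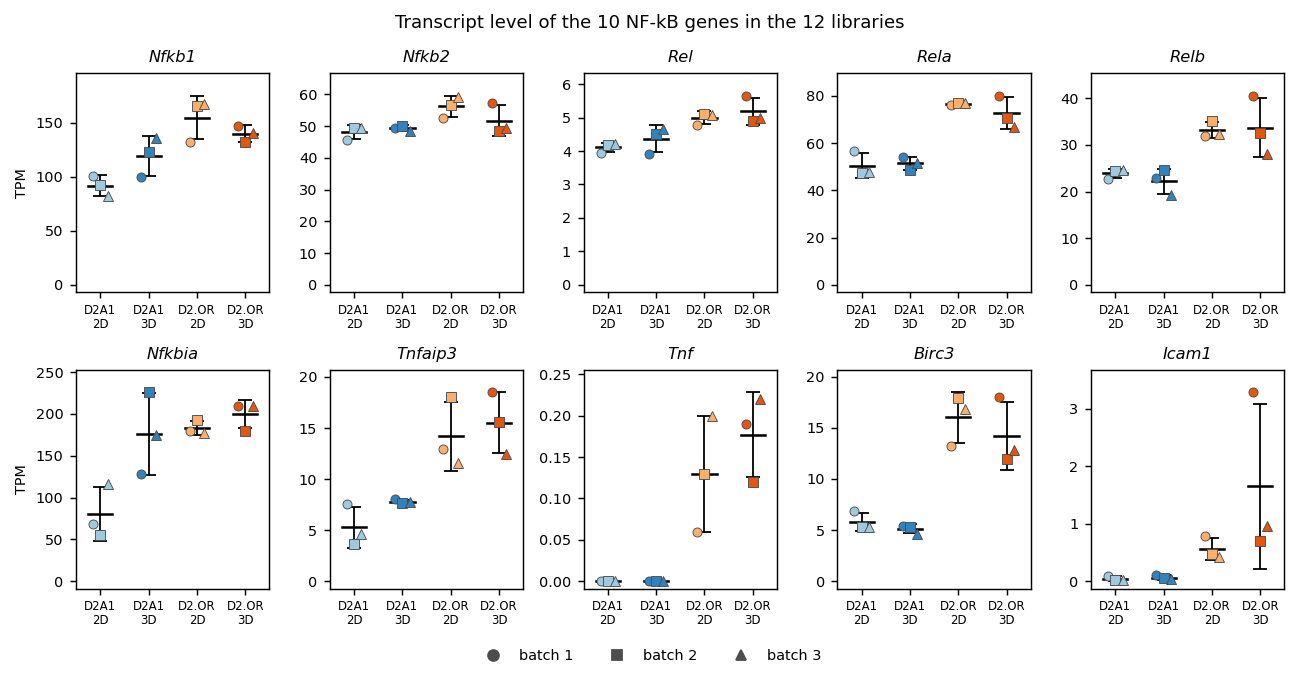
Level of each of the 10 genes in TPM, on a linear axis, in the 4 groups; symbols are libraries by batch, horizontal lines are means and error bars are SD over 3 libraries. Nfkbia in D2A1 lay at 55.2 to 116 TPM in 2D and at 128 to 226 TPM in 3D, and Tnf was listed at 0 in all 6 D2A1 libraries.

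The first comparison asked how the lines differ when both grow in 2D. All 10 members were called higher in D2.OR (edgeR quasi-likelihood test with batch as a block, Benjamini-Hochberg adjusted p under 0.05 over all genes), against a background of 25.4% of all genes called higher and 24.4% called lower. Icam1 and Tnf passed the count filter only through D2.OR, so they had to differ, and the count to read is 8 of the other 8. The median log2 fold change of those 8 genes was 0.80, with 0.00 over all genes. The 5 subunits ranged from 0.35 to 0.87 on the log2 scale, and Nfkbia, Tnfaip3 and Birc3 from 1.33 to 1.64.

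Nfkb1 (ENSMUSG00000028163.17, chromosome 3, 135584655 to 135691547, minus strand), whose precursor is cut to the DNA-binding partner of Rela, was at 101, 92.2 and 82.2 TPM in D2A1 2D and at 132, 165 and 167 TPM in D2.OR 2D. The lowest D2.OR library was above the highest D2A1 library, and the log2 fold change was 0.87 (SE 0.14, adjusted p = 0.000855, edgeR). On its chromosome 40.9% of the genes tested were called lower in D2.OR and 16.5% higher, with a median log2 fold change of -0.37.

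Rela (ENSMUSG00000024927.7, chromosome 19, 5637483 to 5648130, plus strand), the main activating subunit, was at 56.5, 47.3 and 47.7 TPM in D2A1 2D and at 76.0, 77.0 and 77.0 in D2.OR 2D. The D2.OR libraries were all higher and nearly equal, with a log2 fold change of 0.74 (SE 0.09, adjusted p = 0.000141, edgeR). Relb (ENSMUSG00000002983.17, chromosome 7, 19606217 to 19629438, minus strand), the activating subunit of the noncanonical pathway, was at 22.7, 24.4 and 24.6 TPM against 32.0, 35.2 and 32.4 TPM. That was 0.60 higher on the log2 scale in D2.OR (SE 0.12, adjusted p = 0.00312, edgeR), again without overlap. Leaving out replicate 2 of all groups raised this p to 0.0632.

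Nfkb2 (ENSMUSG00000025225.14, chromosome 19, 46304737 to 46312090, plus strand), the precursor partner of Relb, had the smallest difference of the members. Its levels were 45.5, 49.5 and 49.4 TPM in D2A1 2D and 52.6, 56.8 and 59.2 TPM in D2.OR 2D, and the log2 fold change was 0.35 (SE 0.08, adjusted p = 0.00795, edgeR). Psd overlaps Nfkb2 on the opposite strand and reached 12.6 TPM, and the strand setting of the counting is not given in the sources used here. Rel (ENSMUSG00000020275.9, chromosome 11, 23736847 to 23770970, minus strand), the activating subunit best known from lymphocytes, was low, at 3.95, 4.17 and 4.22 TPM against 4.77, 5.12 and 5.09 TPM. Its log2 fold change was 0.41 (SE 0.11, adjusted p = 0.012, edgeR). The calls for Nfkb2 and Rel were the least firm of the subunits: each lost its call under 6 of 24 alternatives, among them library totals in place of TMM factors (edgeR adjusted p = 0.0938 and 0.0793).

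Summed over the 5 subunits, D2A1 2D held 218 ± 10.8 TPM and D2.OR 2D 326 ± 24.9 TPM (SD, n = 3). Nfkb1 made up 42.0% ± 2.28 of that sum in D2A1 2D and 47.4% ± 2.63 in D2.OR 2D, Rela 23.1% ± 1.43 and 23.6% ± 1.71, and Nfkb2 22.1% ± 2.05 and 17.3% ± 0.482. Rel contributed at most 2.03% in any library. These shares were not tested.

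Both feedback inhibitors were higher in D2.OR. Nfkbia (ENSMUSG00000021025.8, chromosome 12, 55489410 to 55492647, minus strand) encodes IkB alpha, which binds NF-kB dimers and is rapidly resynthesized after each activation. It was at 68.3, 55.2 and 116 TPM in D2A1 2D and at 179, 192 and 177 TPM in D2.OR 2D. All D2.OR libraries were higher, the third D2A1 library was the closest to them, and the log2 fold change was 1.33 (SE 0.26, adjusted p = 0.00242, edgeR).

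Tnfaip3 (ENSMUSG00000019850.11, chromosome 10, 19000910 to 19015657, minus strand) encodes a ubiquitin-editing enzyme that shuts off signalling upstream of the IkB kinase. Its levels of 7.56, 3.64 and 4.62 TPM in D2A1 2D contrasted with 12.9, 18.0 and 11.6 TPM in D2.OR 2D. The groups did not overlap, and the log2 fold change was 1.64 (SE 0.26, adjusted p = 0.000779, edgeR). Chromosome 10 as a whole stood higher in D2.OR: 52.1% of its 837 other tested genes were called higher and 8.0% lower, with a median of 0.56. Within 1 Mb of Tnfaip3, 10 of 13 genes were called higher and 0 lower, with a median of 1.27. The part of this regional difference in the Tnfaip3 value was not tested.

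Of the effector targets, Birc3 (ENSMUSG00000032000.17, chromosome 9, 7848699 to 7873186, minus strand), which encodes an inhibitor of apoptosis and ubiquitin ligase at TNF receptors, was at 6.83, 5.27 and 5.27 TPM in D2A1 2D. In D2.OR 2D it was at 13.2, 17.9 and 16.8 TPM, a log2 fold change of 1.62 (SE 0.19, adjusted p = 0.000173, edgeR), and the groups were well apart. Its paralog Birc2 lies 11635 bases away on the same chromosome, and reads shared by the pair could be split between them in the expected counts. Birc2 was the more abundant and was higher in D2.OR too, at a mean of 24.3 TPM in D2A1 2D and 47.8 TPM in D2.OR 2D.

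Icam1 (ENSMUSG00000037405.8, chromosome 9, 21015985 to 21028817, plus strand), the adhesion molecule that binds leukocyte integrins, was low in both lines. Its expected counts were 6, 2 and 1 in D2A1 2D and 81, 36 and 32 in D2.OR 2D, corresponding to 0.02 to 0.09 TPM and 0.42 to 0.78 TPM. The groups were far apart, and the ratio of summed counts per library size was 16.3 (95% exact interval 8.36 to 36.4, counting error only). The adjusted p was 9.42e-05 (edgeR), but 0.0607 by limma on log2(TPM + 1), a scale that shrinks differences at such low levels. Tnf (ENSMUSG00000024401.14, chromosome 17, 35199381 to 35202007, minus strand), the founding cytokine of the pathway, had counts of 0 in all 6 D2A1 libraries, 4, 6 and 9 in D2.OR 2D and 10, 6 and 11 in D2.OR 3D. Against a floor of 3 counts per library the D2.OR level was at least 2.19-fold higher in 2D and at least 3.26-fold higher in 3D. With at most 11 reads in a library, Tnf was at the edge of detection in D2.OR and not detected at this depth in D2A1. Without D2.OR 3D replicate 3 it no longer passed the count filter and was not tested.

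The second comparison asked whether the same difference was present in 3D. In 3D, 6 members were called higher in D2.OR and 0 lower, with 27.7% of all genes called higher and 26.1% lower. Without Icam1 and Tnf the count was 4 of 8, with a median log2 fold change of 0.34 beside 0.00 over all genes. The members still called were Rela (0.47, SE 0.09, adjusted p = 0.00161, edgeR), Relb (0.54), Tnfaip3 (0.99), Birc3 (1.48), Icam1 (4.52) and Tnf. Leaving out replicate 2 raised the adjusted p of Rela to 0.0505, and leaving out replicate 3 raised that of Tnfaip3 to 0.0583.

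Birc3 kept its distance in 3D, at 5.38, 5.33 and 4.61 TPM in D2A1 and 18.0, 11.9 and 12.8 TPM in D2.OR (SE 0.19, adjusted p = 0.000251, edgeR). Tnfaip3 was at 8.01, 7.69 and 7.71 TPM against 18.5, 15.6 and 12.5 TPM (SE 0.25, adjusted p = 0.00836, edgeR), also without overlap. Relb was at 22.8, 24.6 and 19.2 TPM against 40.5, 32.5 and 28.0 TPM (SE 0.12, adjusted p = 0.00449, edgeR). In each of these 3 genes, D2.OR 3D was highest in batch 1. Icam1 had counts of 11, 5 and 3 in D2A1 3D and 274, 65 and 90 in D2.OR 3D, and the ratio of summed counts per library size was 24.5 (95% exact interval 15.5 to 41.2, counting error only).

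Nfkb1, Nfkb2, Rel and Nfkbia did not pass the test in 3D. Nfkb1 was at 99.5, 123 and 136 TPM in D2A1 3D and 147, 132 and 140.5 TPM in D2.OR 3D, so the ranges overlapped (log2 fold change 0.17, SE 0.14, adjusted p = 0.306, edgeR). Nfkb2 was at 49.5, 50.2 and 48.5 TPM against 57.3, 48.4 and 49.5 TPM (0.03, SE 0.08, adjusted p = 0.754, edgeR). Nfkbia was at 128, 226 and 175 TPM in D2A1 3D and 209, 180.1 and 209.8 TPM in D2.OR 3D, and 1 D2A1 library exceeded all D2.OR libraries (0.14, SE 0.25, adjusted p = 0.653, edgeR). Rel was at 3.92, 4.51 and 4.67 TPM against 4.91 to 5.65 TPM, which did not overlap but missed the threshold (0.22, SE 0.11, adjusted p = 0.109, edgeR). A value that missed the threshold does not show that the lines were alike.

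**Figure D2:**
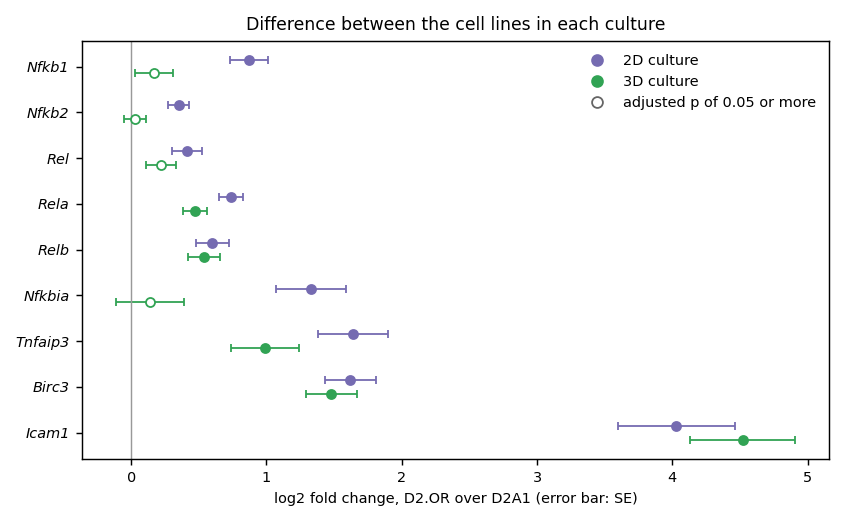
Log2 fold change of D2.OR over D2A1 in 2D and in 3D culture for 9 members, with SE as error bars; open circles have an adjusted p of 0.05 or more, and Tnf is left out because its counts were 0 in D2A1. The points for Nfkb1 (0.87 in 2D, 0.17 in 3D) and Nfkbia (1.33 and 0.14) lie farther apart than those for Relb (0.60 and 0.54) and Birc3 (1.62 and 1.48).

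The third comparison asked what changed on moving from 2D to 3D within a line. In D2A1, 1 member was called higher in 3D and 0 lower, with 1.37% of all genes called higher and 2.12% lower. That member was Nfkbia, at 68.3, 55.2 and 116 TPM in 2D and 128, 226 and 175 TPM in 3D. The groups did not overlap, and the log2 fold change was 1.26 (SE 0.26, adjusted p = 0.0427, edgeR). Within batches 1, 2 and 3 the difference in log2 CPM was 0.92, 2.13 and 0.75. The call was not firm: it was lost in 9 of 12 fits that left out a single library, with edgeR adjusted p from 0.0502 to 0.204, and in the fit without the batch block (adjusted p = 0.0643). The D2A1 libraries whose removal ended it were replicates 2 and 3 of 2D (0.164 and 0.0876) and replicates 2 and 3 of 3D (0.204 and 0.19), and the D2.OR libraries were replicates 2 and 3 of 2D (0.0745 and 0.072) and replicates 1, 2 and 3 of 3D (0.0502, 0.0704 and 0.0731).

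Nfkb1 and Tnfaip3 had values in the same direction in D2A1 but missed the threshold in edgeR. DESeq2 called both (adjusted p = 0.0206 and 0.0451), and it called 20.2% of all genes in this comparison. Nfkb1 was at 101, 92.2 and 82.2 TPM in 2D and 99.5, 123 and 136 TPM in 3D (log2 fold change 0.49, SE 0.14, adjusted p = 0.0649, edgeR), and its within-batch differences were 0.04, 0.60 and 0.82. Tnfaip3 had a log2 fold change of 0.72 (SE 0.25, adjusted p = 0.094, edgeR), with within-batch differences of 0.07, 1.26 and 0.95. In both genes batch 1 showed almost no difference. Without D2A1 2D replicate 1 both passed, with adjusted p of 0.00874 for Nfkb1 and 0.00742 for Tnfaip3, in a fit that called 30.3% of all genes. Without D2A1 3D replicate 1 Nfkb1 passed as well, with an edgeR adjusted p = 0.019, where 12.8% of all genes were called. The other members at 10 counts or more in every library had, in D2A1, log2 fold changes between -0.09 for Birc3 and 0.19 for Rel. Icam1, at 6, 2 and 1 counts in 2D and 11, 5 and 3 in 3D, had a log2 fold change of 0.75 that did not pass (SE 0.51, adjusted p = 0.388, edgeR). So few counts allow little to be said.

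In D2.OR, 0 members were called in either direction by edgeR, 1 had an unadjusted p under 0.05 (17.6% of all genes did), and none was called under any alternative, DESeq2 and limma included; of all genes, 0.838% were called higher and 0.785% lower. The member with the lower p was Icam1, at 0.78, 0.47 and 0.42 TPM in 2D and 3.29, 0.70 and 0.96 TPM in 3D (log2 fold change 1.24, SE 0.32, adjusted p = 0.0972, edgeR). It was higher in 3D within all 3 batches, by 1.93, 0.52 and 1.11 on the log2 CPM scale, although the ranges of the groups overlapped. The 8 members at 10 counts or more in every library had log2 fold changes from -0.22 to 0.08, and Tnf, at 4 to 11 counts in each D2.OR library, had 0.35 (SE 0.57, adjusted p = 0.799, edgeR).

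**Figure D3:**
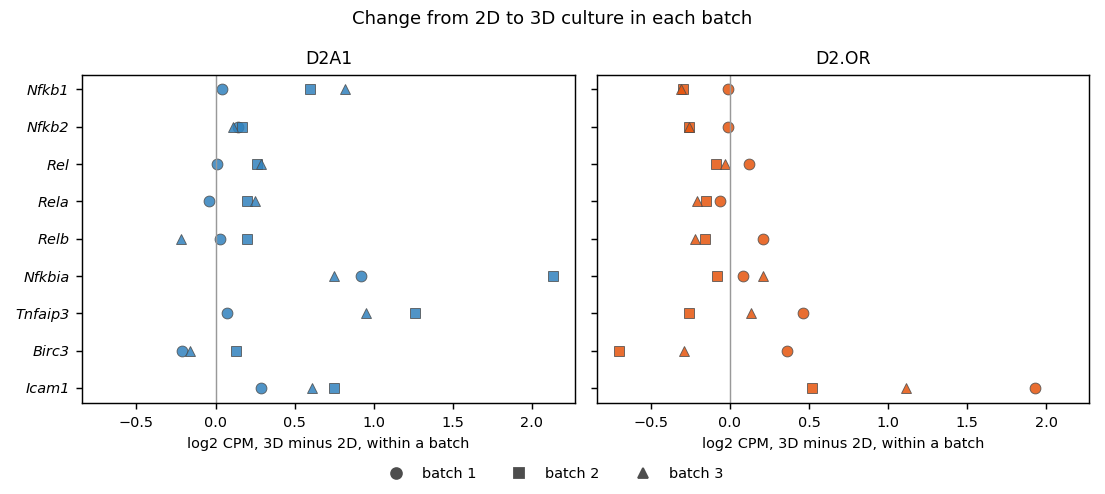
Difference in log2 CPM between 3D and 2D culture within each batch for 9 members, in D2A1 (left) and D2.OR (right); each symbol is 1 batch and Tnf is left out. In D2A1, Nfkbia was higher in 3D in all 3 batches (0.92, 2.13 and 0.75), and Nfkb1 in batch 1 lay near 0 (0.04).

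Whether the culture effect differed between the lines was tested by the interaction of line and culture. By edgeR, 0 members were called, as were 0.0238% of all genes, and 3 members had an unadjusted p under 0.05, as did 17.8% of all genes, while DESeq2 called 1, Nfkb1 (-0.68, adjusted p = 0.0448), and 5.33% of all genes. These 3 were Nfkb1 (interaction -0.70, SE 0.20, adjusted p = 0.155, edgeR), Nfkb2 (-0.31, SE 0.12, adjusted p = 0.226, edgeR) and Nfkbia (-1.19, SE 0.36, adjusted p = 0.164, edgeR). So by edgeR on all libraries the narrower gap of these genes in 3D was not shown to differ from that in 2D. Nfkb1 was called without D2A1 2D replicate 1 (edgeR adjusted p = 0.0174) and without D2A1 3D replicate 1 (0.0398), and Tnfaip3 without the former (0.0471, against 0.372 with all libraries). These fits called 14.5% and 2.94% of all genes.

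The rest of the pathway was described with 73 genes in 6 lists, of which 67 passed the filter. In 2D, 31 were called higher in D2.OR and 8 lower, beside 25.4% and 24.4% of all genes, with a median log2 fold change of 0.54. In 3D, 30 were called higher and 11 lower, beside 27.7% and 26.1% of all genes, with a median of 0.24. The median over all genes was 0.00 in both. With replicate 2 left out of all groups, the total of 39 calls in 2D became 24 and that of 41 in 3D became 23, and with replicate 3 left out they became 24 and 22. Calls over all genes fell too, from 49.8% to 24.9% and 31.8% in 2D and from 53.8% to at most 35.2% in 3D. With the filter on low counts applied to each line alone, 6 of the 67 genes failed in at least 1 line, namely Tnfrsf11a, Lta, Tnfsf12, Tnfsf13b, Ptgs2 and Nos2; without them 29 of 61 were called higher and 8 lower in 2D, and 28 and 9 in 3D.

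Among the other IkB family genes, 3 of 5 were called higher in D2.OR 2D and 0 lower, beside 25.4% and 24.4% of all genes, and 2 were higher and 1 lower in 3D, beside 27.7% and 26.1%, with medians of 0.76 and 0.17. Nfkbie, another cytoplasmic inhibitor, was at 6.74, 3.96 and 6.72 TPM in D2A1 2D and 16.4, 19.3 and 14.7 TPM in D2.OR 2D (log2 fold change 1.68, SE 0.23, adjusted p = 0.00037, edgeR). In 3D the difference was 1.73. Nfkbid, a nuclear family member, was under 0.5 TPM in all 2D libraries (1.44, adjusted p = 0.0478, edgeR).

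Of 10 kinases and adaptors, 4 were called higher in D2.OR 2D and 2 lower, beside 25.4% and 24.4% of all genes. The lower ones were Ikbkg (-0.42) and Tab3 (-0.32), a share near the background, and the list median was -0.05. Ikbkb, the catalytic subunit of the canonical IkB kinase, was at 36.6, 33.5 and 35.2 TPM against 48.7, 54.5 and 56.0 TPM (0.75, SE 0.07, adjusted p = 4.78e-05, edgeR), and the difference was 0.88 in 3D. Tbk1, an IkB-kinase-related kinase, was 0.56 higher, and Map3k14, the kinase that starts the noncanonical pathway, was 0.72 higher.

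Of 20 tested receptors and receptor adaptors, 10 were called higher in D2.OR 2D and 2 lower, beside 25.4% and 24.4% of all genes. Ripk1, the kinase recruited to TNF receptors, was at 16.1, 12 and 13.1 TPM in D2A1 2D and 28.6, 27.3 and 30 TPM in D2.OR 2D (1.18, SE 0.09, adjusted p = 1.7e-05, edgeR), though it overlaps Serpinb6a, which reached 291.6 TPM. Traf1, an NF-kB-induced adaptor, was at 0.71, 0.28 and 0.68 TPM against 12.7, 5.97 and 5.72 TPM (4.0, SE 0.48, adjusted p = 0.000167, edgeR). Tnfrsf11a, the receptor RANK, reached 0.18 TPM at most in D2A1 2D and 0.49 to 1.73 TPM in D2.OR 2D. It passed the filter only through D2.OR, so it had to differ, and it is among the 20 genes tested.

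Only 3 of 7 TNF-family ligands passed the filter. Tnfsf12, the cytokine TWEAK, was at 0.02 TPM or less in D2A1 2D and at 16.0, 16.2 and 18.0 TPM in D2.OR 2D. It passed the filter only through D2.OR, so it had to differ, and the fusion gene Tnfsfm13 overlaps it. Tnfsf13b and Lta, both under 1 TPM, were not called (adjusted p = 0.0855 and 0.416, edgeR).

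Of 8 other negative regulators, 2 were called higher in D2.OR 2D and 2 lower, which is near the background of 25.4% and 24.4% in both directions, with a list median of 0.14. Zc3h12a, the ribonuclease that degrades inflammatory mRNAs, was at 8.40, 4.65 and 5.94 TPM against 39.0, 37.8 and 43.9 TPM (2.89, SE 0.34, adjusted p = 0.000155, edgeR). Cyld, a deubiquitinase, was 0.44 higher. Otud7b, a deubiquitinase of the noncanonical pathway, was the reverse, at 106, 91.8 and 120.5 TPM in D2A1 2D and 33.1, 28.6 and 33.8 TPM in D2.OR 2D (-1.49, SE 0.15, adjusted p = 6.31e-05, edgeR).

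Of 21 other target genes tested, 11 were called higher in D2.OR 2D and 2 lower, beside 25.4% and 24.4% of all genes, with a median log2 fold change of 1.25. In 3D, 9 were called higher and 5 lower, beside 27.7% and 26.1%, with a median of 0.56, so the lower calls were near the background. Il6, an inflammatory cytokine, was at 0.23, 3.74 and 2.69 TPM in D2A1 2D and 6.48, 70.0 and 85.6 TPM in D2.OR 2D (5.0, SE 0.68, adjusted p = 0.000334, edgeR). In 3D the log2 fold change was 0.33 (adjusted p = 0.631, edgeR). Cxcl5, a neutrophil chemokine, had 4.95 in 2D and 1.32 in 3D, the latter not past the threshold (adjusted p = 0.115, edgeR). Irf1, an interferon-regulatory factor, was 1.25 higher in 2D and 1.05 higher in 3D, both past the threshold.

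In D2A1, 10 of the 67 pathway genes were called higher in 3D than in 2D and 1 lower, beside 1.37% and 2.12% of all genes. This comparison shares the D2A1 2D libraries with the comparison of lines in 2D. The genes called higher were the IkB family members Nfkbiz (1.02) and Bcl3 (0.86), the adaptor Traf1 (2.31), the ribonuclease Zc3h12a (2.14), and 6 targets: the superoxide dismutase Sod2 (1.07), the chemokines Cxcl1 (3.75) and Cxcl5 (3.91), Il6 (3.85), the nitric oxide synthase Nos2 (4.81) and the protease Mmp9 (2.14). Nos2 had 4, 6 and 10 counts in 2D and 26, 559 and 245 in 3D and passed the filter only through D2A1 3D, so it had to differ. Without the 6 genes that failed the filter in at least 1 line, Nos2 among them, 9 of 61 were called higher and 1 lower. Bcl2l1, an anti-apoptotic gene, fell by 0.86. Adjusted p ranged from 0.028 for Zc3h12a to 0.0478 for Bcl2l1 (edgeR), so all 11 lay close to the threshold.

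The size of that response differed between batches. Cxcl1 in D2A1 was at 14.4, 45.6 and 27.3 TPM in 2D and 46.0, 723 and 596.5 TPM in 3D. Il6 was at 0.23, 3.74 and 2.69 TPM in 2D and 0.67, 57.2 and 47.7 TPM in 3D. In both genes the batch 1 library in 3D was far below the other libraries in 3D. Over the 10 genes, Nos2 included, the within-batch difference in log2 CPM had a median of 0.88 in batch 1, 3.00 in batch 2 and 2.43 in batch 3. The difference was smallest in batch 1 for 8 of the 10. The count of 11 called genes became 27 without D2A1 2D replicate 1 and 23 without D2A1 3D replicate 1, while calls over all genes rose from 3.48% to 30.3% and 12.8%. It became 0 without replicate 2 or 3 of D2A1 2D, of D2A1 3D or of D2.OR 2D, or without D2.OR 3D replicate 3, and 7 and 4 without D2.OR 3D replicates 1 and 2. The fit without the batch block called 1. The summed level of the leukocyte marker list moved with it, from at most 72.8 TPM in D2A1 2D to at most 191.9 TPM in D2A1 3D. Cd14, which many other cell types also express, was at 17.7, 46.6 and 40.6 TPM in 2D and 30.3, 185.4 and 168.8 TPM in 3D (1.73, SE 0.35, adjusted p = 0.042, edgeR). Cd68 had a value of -1.28 that did not pass (adjusted p = 0.171, edgeR), and Ptprc stayed under 1 TPM. Csf1r, a macrophage receptor, had 1, 2 and 5 counts in 2D and 7, 31 and 90 in 3D, a value of 3.52 that did not pass (SE 0.90, adjusted p = 0.0567, edgeR). Their part in the result was not tested.

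**Figure D4:**
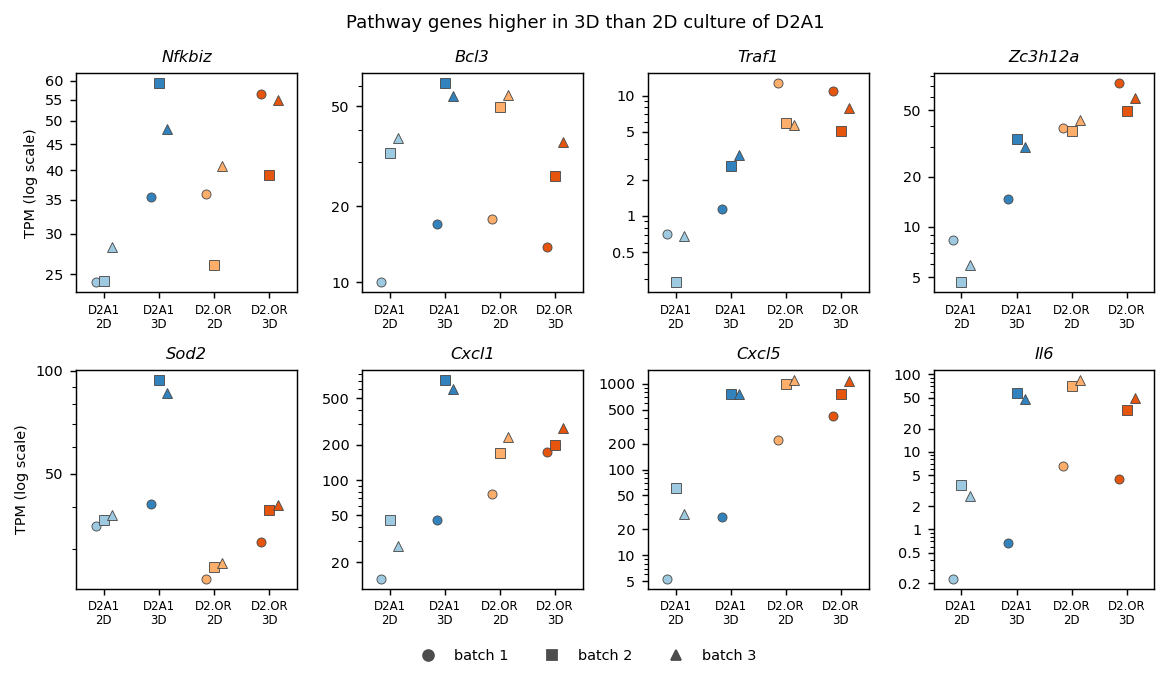
Level in TPM, on a log axis with its own range in each panel, of 8 of the pathway genes called higher in D2A1 3D than in D2A1 2D; symbols are libraries by batch. For Cxcl1 the batch 2 and 3 libraries of D2A1 3D (723 and 596.5 TPM) lie above those of D2.OR 3D (199 and 278.5 TPM), and the batch 1 library (46.0 TPM) lies below its D2.OR counterpart (174 TPM).

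In D2.OR, 1 of the 67 genes was called between 2D and 3D, which is near the 1.62% of all genes called. Lcn2, which encodes the iron-siderophore binding protein lipocalin, was at 87.3, 339 and 259 TPM in 2D and 362, 1182 and 749.9 TPM in 3D (1.76, SE 0.35, adjusted p = 0.0454, edgeR). Its within-batch differences were 1.92, 1.77 and 1.52. The call was lost in 8 of 12 fits without 1 library, namely D2A1 2D replicate 2, D2A1 3D replicates 2 and 3, all 3 replicates of D2.OR 2D, and D2.OR 3D replicates 2 and 3, and it was lost with no batch block. DESeq2 called 4 of the 67, near its 6.86% of all genes. In D2A1 the difference was 1.43 with adjusted p = 0.0534, edgeR. For the interaction, edgeR called 0 of the 67 genes, 13 had an unadjusted p under 0.05, near the 17.8% of all genes, and DESeq2 called 9, beside 5.33% of all genes.

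Icam1 had the largest variance of log2 CPM over the 12 libraries among the members. The 3 other genes whose log2 CPM followed it most closely were Zfp119a (Pearson r = 0.988), Zdhhc24 (0.982) and Sap18 (0.977) over 12 libraries. These correlations describe a shared pattern in which D2.OR 3D was highest, at 6.29, 15.6 and 410 TPM on average against 2.59, 8.82 and 286 TPM in D2A1 3D, and the 12 points share cell line and batch.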

How the data were processed

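RNA-seq was analysed in 12 libraries, 3 in each of 4 groups of cell line and culture. The authors trimmed reads with Trimmomatic 0.32 after FastQC 0.11.4, removed reads with undetermined bases, aligned them with STAR 2.5.3 to GRCm38 with GENCODE annotation and quantified genes with RSEM 1.3.0, and deposited RSEM expected counts and TPM per gene. RSEM shares reads that fit several genes, and 10.7% to 11.8% of genes had expected counts that were not whole. Library totals were 47589611 to 73325069, so counting error was small for 8 members and large for Tnf and Icam1. Expected counts were rounded and fitted with edgeR 4.0.16 in R 4.3.3 (quasi-likelihood, TMM, filterByExpr by group), with group terms and batch as a block over all 12 libraries. All 5 contrasts were adjusted by Benjamini-Hochberg over 16823 genes, with a threshold of 0.05. Log2 CPM used a prior count of 2. SE is the absolute log2 fold change over the square root of F.

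Replicate numbers are batch numbers in the labels. Deviations from group means correlated at a median of 0.27 (0.08 to 0.51, 18 pairs) for libraries of the same number and -0.19 (36 pairs) for others. The members, the lists and the tests were chosen with earlier results of these data known. Named pathway genes were, for each list, the 3 with the smallest p in D2.OR against D2A1 in 2D and any called for culture or interaction. The symbol Itgam had 2 entries, of which the one with more counts was used. Promoters came from RefSeq windows. Alternatives were no block, DESeq2 1.42.0, limma 3.58.1 with pseudocounts of 1 and 0.1 added to TPM before the log2, size factors from DESeq2, unscaled library totals, no filter, a minimum of 10 counts throughout, fits to the compared groups alone, and fits without a replicate or a library.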

Additional observations from a re-analysis of the deposited data

Results flagged for a closer look

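In 6 of the 77 member and pathway genes tested, the difference between 3D and 2D had one sign in all 3 D2A1 batches and the other sign in all 3 D2.OR batches. The same pattern was present in 7.03% of all genes, so a share of 7.79% is near the background. None of the 6 interactions passed the edgeR test over all genes. For Nfkb1 the interaction was -0.70 on the log2 scale (adjusted p = 0.155, edgeR), and in batch 1 the differences were near 0 in both lines (0.04 and -0.01). For Nfkb2 it was -0.31 (adjusted p = 0.226, edgeR), with within-batch changes no larger than 0.26 in size. Bcl3, the nuclear IkB family member that works with the Nfkb1 and Nfkb2 products, had an interaction of -1.54 (SE 0.22, adjusted p = 0.0683, edgeR). It was at 10, 32.7 and 37.5 TPM in D2A1 2D, 17.1, 61.6 and 55.0 in D2A1 3D, 17.8, 49.6 and 55.5 in D2.OR 2D and 13.8, 26.3 and 36.0 in D2.OR 3D. Accordingly it was called higher in D2.OR in 2D (0.76) and lower in 3D (-0.78), and the interaction was called by DESeq2 (5.04e-06) and by edgeR with no count filter (0.0207), but had an adjusted p of 0.456 with no batch block, 0.0048 without replicate 1, 0.847 without replicate 2 and 0.642 without replicate 3 (edgeR). Il6 had -4.68 (SE 0.84, adjusted p = 0.0892, edgeR), with -1.55 in batch 1 against -5.27 and -5.18 in batches 2 and 3. It too was called by DESeq2 (4.26e-05) and by edgeR with no count filter (0.0285), and had an adjusted p of 0.33 with no batch block, 0.00167 without replicate 1, 0.847 without replicate 2 and 0.647 without replicate 3 (edgeR). Tnfsf12, near 0 in D2A1, had -2.36 (adjusted p = 0.26, edgeR), and Ikbkb had 0.13 (SE 0.10, adjusted p = 0.514, edgeR).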

How the results depend on the processing

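For D2.OR against D2A1 in 2D, the 10 member calls ranged from 6 to 10 when a replicate or a library was left out. For 3D against 2D in D2A1, the 1 call became 0 with no replicate block, 0 with only the groups compared and 3 by DESeq2, and ranged from 0 to 3 with libraries left out. For the interaction, 0 became 1 by DESeq2 and ranged from 0 to 2. The member counts for D2.OR against D2A1 in 3D and for 3D against 2D in D2.OR moved by at most 1.5 times under all alternatives. The replicate block changed no other member call. Of 398 alternative values for called differences, 0 changed sign, and of 728 for differences not called, 48 did. Under library totals the median of all genes in 2D was -0.17 and the calls were 3394 higher and 5399 lower, beside 4275 and 4103 with TMM, and Nfkb2 and Rel were not called. In D2A1, pathway calls between cultures went from 11 to 24 by DESeq2, to 33 without replicate 1 and to 0 without replicate 2 or 3, while calls over all genes went from 3.48% to 20.2%, 36.3% and 0. In D2.OR the 1 pathway call went to 0 with no replicate block or with at least 10 counts in every library, to 7 with only the groups compared, to 4 by DESeq2, to 3 by limma with a pseudocount of 1 and to 2 with no filter, and ranged from 0 to 6 with replicates or libraries left out. Pathway calls between lines ranged from 24 to 45 in 2D and 22 to 45 in 3D when these were left out. The 24 came without replicate 2 or 3, where 24.9% and 31.8% of all genes were called, beside 49.8% with all libraries. For the interaction, pathway calls ranged from 0 to 21. The 21 came without replicate 1, where 17.8% of all genes were called, beside 0.0238% with all libraries. In D2.OR, all-gene calls between cultures also rose, from 1.62% to 5.16% with only the groups compared and to 8.38% without replicate 1. Causes were not tested. Depth limits Tnf, at 11 counts or fewer, and Icam1 in D2A1.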

Other observations

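The genes around Tnfaip3 differed between the lines together with it. Within 1 Mb on chromosome 10, 13 other genes were tested, and 10 were called higher in D2.OR in 2D and 0 lower, with a median log2 fold change of 1.27. Beside this, 25.4% of all genes and 52.1% of those on chromosome 10 were called higher, and 24.4% and 8.0% lower. In 3D, 8 of the 13 were called higher and 0 lower, with a median of 0.93, beside 27.7% and 26.1% of all genes. Perp, a desmosomal membrane protein gene, was at 103.5 TPM on average in D2A1 2D and 691 TPM in D2.OR 2D (log2 fold change 2.51, SE 0.29, adjusted p = 0.000129, edgeR). Ifngr1, a chain of the interferon-gamma receptor and the neighbour on the other side, was at 22.1 and 66.7 TPM (1.75, SE 0.18, adjusted p = 6.71e-05, edgeR). Map3k5, a stress-activated kinase, was at 6.34 and 15.7 TPM (1.52, SE 0.18, adjusted p = 0.000155, edgeR). The window was looked at after the Tnfaip3 value was seen.

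The chromosomes of the members were shifted in different directions in 2D. The median log2 fold change of D2.OR over D2A1 was 0.56 on chromosome 10, which holds Tnfaip3, 0.20 on chromosome 7, which holds Relb, and 0.15 on chromosome 19, which holds Nfkb2 and Rela. It was -0.37 on chromosome 3, which holds Nfkb1, and -0.26 on chromosome 11, which holds Rel, although these 2 members were higher in D2.OR. On chromosome 9, which holds Birc3 and Icam1, it was 0.00, on chromosome 12, which holds Nfkbia, 0.10, and on chromosome 17, which holds Tnf, 0.05. Nearby genes could differ from the whole chromosome. Within 1 Mb of Nfkb1 the median was 0.14, with 2 of 13 genes called higher and 3 lower. Window medians of members other than Tnfaip3 ranged from -0.38 around Rel to 0.33 around Nfkbia. The part of such shifts in the member values was not tested.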
